A study of Mus musculus with 13 samples.

Results

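Chromatin accessibility was compared at P0 between nephron progenitors (NP), the self-renewing cells of the metanephric mesenchyme lineage, and collecting duct principal cells (PC), which derive from the ureteric bud. The members were all nuclei that the deposited annotation names NP or PC in the 2 P0 samples of the single nuclei ATAC-seq (snATAC-seq) data. They numbered 2781 of the 11429 P0 nuclei and of the 28316 nuclei in all. NP held 1032 nuclei in P0 sample 1 and 1005 in P0 sample 2, and PC held 394 and 350.

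Nuclei were isolated from whole kidneys of mice labelled P0, called 1-day-old in the extraction protocol, and that protocol gives no strain, genotype, treatment or sex. The study's scRNA-seq methods name wild type neonates and C57BL/6 mice, and whether this holds for the nuclei is not stated. The sources do not say whether the 2 samples came from separate animals. The p-values therefore cover counting error and at most the spread between these samples, which may be technical. The study also holds 1 snATAC-seq sample at P21 and 2 at P56, used below as adult samples, and 1 scRNA-seq library at P0. In the deposited matrix a nucleus has an open call at a peak when at least 1 fragment lies in it. Adding up these calls within each cluster and sample gave 6408014 and 7649123 calls for NP and 2678332 and 2666471 for PC in samples 1 and 2. The median nucleus had 5897.5 and 7226 open peaks in NP and 6554.5 and 7369 in PC. A total of 52 barcodes occurred in both P0 samples, and 17 NP or PC nuclei carried one of them. Between the samples, the sums of a cluster differed by a mean chi-square per peak of 1.21 in NP and 0.94 in PC, where counting error alone gives about 1. The PC sums therefore differed by about as much as counting error gives, although nearly all their barcodes differ, and both samples were kept.

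The kidney forms from a pair of tissues that signal to each other. Cap mesenchyme cells expressing Six2 renew themselves and give rise to the nephron from podocyte to distal tubule, and they secrete Gdnf, the ligand that makes the Ret-expressing ureteric bud grow and branch. The bud in turn sends Wnt9b to the progenitors and matures into the collecting duct, whose principal cells reabsorb water through aquaporins and sodium through the epithelial sodium channel.

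The sequences below carry the main contrasts and come from the RefSeq genome of GRCm38.p6, which is the mm10 build of the files. The peak with the largest NP to PC difference among those open in at least 10% of nuclei lies in an intron, 29580 bp from the start of Zbtb20, a zinc finger gene. For PC the peak nearest to Ces2a, a carboxylesterase gene, is shown, which had the second largest fitted difference after the peak nearest to Spink6. The 200 bases before the starts of Six2, the progenitor regulator, and Aqp2, the vasopressin-regulated water channel, are on the strand of the gene. Capitals mark matches to any of 18 short motifs searched on both strands, which are spelled out with the motif results.

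Zbtb20, centre of the peak, chr16:43393634-43393933, plus strand, no match: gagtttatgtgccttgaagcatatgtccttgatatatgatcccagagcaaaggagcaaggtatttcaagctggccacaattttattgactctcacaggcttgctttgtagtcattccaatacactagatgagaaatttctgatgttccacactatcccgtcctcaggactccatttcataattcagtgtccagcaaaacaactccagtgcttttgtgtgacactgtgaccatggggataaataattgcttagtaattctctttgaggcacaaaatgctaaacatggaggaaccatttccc
Ces2a, centre of the peak, chr8:104710919-104711218, plus strand: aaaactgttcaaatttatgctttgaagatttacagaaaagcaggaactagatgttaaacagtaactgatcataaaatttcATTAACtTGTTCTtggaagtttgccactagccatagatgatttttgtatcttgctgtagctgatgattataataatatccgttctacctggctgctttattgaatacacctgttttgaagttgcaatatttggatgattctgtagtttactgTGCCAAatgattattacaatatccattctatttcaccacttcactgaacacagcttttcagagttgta
Six2, upstream, chr17:85688275-85688474, minus strand: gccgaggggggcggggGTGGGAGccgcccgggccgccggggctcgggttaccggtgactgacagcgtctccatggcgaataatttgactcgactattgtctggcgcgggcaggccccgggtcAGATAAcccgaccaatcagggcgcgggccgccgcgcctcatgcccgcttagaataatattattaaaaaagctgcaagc
Aqp2, upstream, chr15:99578855-99579054, plus strand: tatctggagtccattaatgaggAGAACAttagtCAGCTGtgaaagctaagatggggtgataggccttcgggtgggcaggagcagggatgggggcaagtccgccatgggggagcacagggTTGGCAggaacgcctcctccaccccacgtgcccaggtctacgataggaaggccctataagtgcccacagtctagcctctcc

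The Zbtb20 peak was open in 20.2% and 24.4% of NP nuclei of samples 1 and 2 and in none of the PC nuclei. The Ces2a peak was open in 0% and 0.0995% of NP nuclei and in 15.5% and 16.6% of PC nuclei. The single peak over the Six2 gene, whose upstream bases are printed above, was open in 35.3% and 43.1% of NP and in 4.57% and 10.6% of PC nuclei. The peak over the start of Aqp2 was open in 0.678% and 0.995% of NP and in 11.2% and 14.6% of PC nuclei. At all 4 peaks the clusters did not overlap between samples, as at nearly all the peaks called below, so this is not particular to them. The Zbtb20 and Ces2a peaks were also chosen for their fold in these samples.

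Gene activity, the open calls summed over the peaks of a gene body and the 2000 bp upstream, was read at the markers of both clusters. The authors named the clusters from the accessibility of known marker genes, so these values describe the named clusters and do not check the names. Nephron progenitor markers summed to 346 and 336 CPM (open calls scaled to a common library total) in NP and to 148 and 137 in PC, and 5 of 6 were called higher in NP, against 22.6% of all genes tested. Principal cell markers summed to 58.4 and 67.7 CPM in NP and 165 and 180 in PC, and all 6 were called higher in PC, against 23.7% of all genes tested. Here and below, called means past a threshold of 0.05 on the Benjamini-Hochberg adjusted p of edgeR's quasi-likelihood test on the 4 sums, with the sample as a block. Log2 fold changes are of open calls, NP minus PC, scaled by library with TMM, so a positive value is higher in NP. The authors made the clusters from the open chromatin of the same nuclei, so these p-values rank peaks and genes and are no independent test that the clusters differ. The fit used almost no spread beyond counting error. Its common dispersion was the same 9.77e-05 for peaks and for genes, so it is not read as a measured spread.

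Markers of other cell types were also read in these nuclei. The 7 stroma markers summed to 268 and 261 CPM in NP and 123 and 128 in PC, against 489 to 522 in the stromal clusters, and 5 of the 7 were called higher in NP, 0 in PC and 2 in neither, beside the same 22.6% of all genes. They included Tcf21 and Foxd1. The 6 podocyte markers gave 441 and 415 in NP and 352 and 354 in PC, against 1119 and 1216 in podocytes. The 5 intercalated cell markers gave 56.5 and 56.6 in NP and 81.4 and 66.0 in PC, against 236 and 259 in intercalated cells. Foxi1, the regulator that defines intercalated cells, was open in 0.0969% and 0.398% of NP and in 6.60% and 6.29% of PC nuclei. Of the 5 markers 3 were called higher in PC, 1 in NP and 1 in neither, the NP-higher one being Slc4a1 at 3.59% and 5.57% of NP and 2.54% and 0.857% of PC nuclei. Immune markers gave 90.4 and 98.3 in NP and 124 and 120 in PC, against 519 and 646 in immune cells, and of the 4 tested 1 was called higher in PC, Ptprc (-2.16), 1 in NP, Csf1r (0.51), and 2 in neither. Proximal tubule markers gave 248 and 239 in NP and 167 and 160 in PC, against 916 and 962 in the PT cluster. Loop of Henle markers gave 132 and 133 in NP and 150 and 117 in PC, with 307 and 346 in that cluster, and endothelial markers gave 272 and 273 against 258 and 262, with 1440 and 1407 in endothelium. Markers of the distal convoluted and connecting tubule gave 149 and 135 in NP and 233 and 219 in PC, against 722 and 695 in the DCT cluster and 274 and 298 in the CNT cluster. The part of such nuclei or doublets in the results was not tested. Without the deepest 10% of nuclei of each sum, an alternative chosen after seeing the data, 3625 genes were called higher in NP and 3803 in PC.

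Of 109095 peaks tested, 36180 were called higher in NP (33.2%) and 33379 higher in PC (30.6%). The median called peak was open in 4.36% of NP and 0.809% of PC nuclei when higher in NP, and in 0.790% of NP and 4.68% of PC nuclei when higher in PC. A difference of at least 4-fold was fitted at 21070 and 18826 of them. The sign was the same in both samples for 36161 and 33321 of the called peaks, though the calls were made from both samples together. The shares of nuclei did not overlap between the clusters at 35029 and 33237 of them. Many called peaks rested on a single cluster, since 27064 NP-higher and 16174 PC-higher peaks had under 10 open calls in both sums of the other cluster. The filter scales its minimum of 10 by library size, so a PC sum passes it with fewer calls than an NP sum. These counts are therefore not the numbers that passed the filter through a single cluster. Without the sample block, 35221 and 32945 peaks were called, and DESeq2 called 21609 and 22310. The split depended on the filter, with 53341 higher in NP and 33374 in PC without the filter. Fisher's exact test over nuclei, which treats nuclei as replicates and so is no test over samples, gave 39946 and 49233.

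Complete absence from the other cluster was rare among well-covered peaks. Of the NP-higher peaks, 1934 had no open call in PC, where 0 of 744 nuclei allows a share of up to 0.403%, and 46 of these were open in at least 10% of NP nuclei. Of the PC-higher peaks, 255 had no open call in NP, where 0 of 2037 nuclei allows up to 0.147%, and 1 of these was open in at least 10% of PC nuclei. In turn, 12034 peaks were open in at least 10% of nuclei of both clusters, of which 1972 were called higher in NP, 1426 in PC, and 0 with a 4-fold difference. With at least 10% in the lower cluster, a 4-fold difference needs a high share in the other. The 0 therefore follows in part from the cut-off. The upper limits above, and the intervals below, cover counting error only.

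The 12 leading NP peaks were all at 0 in PC. The Zbtb20 peak had 453 open calls in NP, a level at least 57.4-fold higher than in PC when the floor is 3 calls over both PC sums. The peak nearest to Nt5c1b, a nucleotidase gene, lies 63796 bp from its start and was open in 19.1% and 20.9% of NP nuclei, at least 51.6-fold higher. The peak in an exon 7887 bp from the start of Ccdc180 was open in 13.8% of NP nuclei in both samples, at least 35.6-fold higher. Elements were assigned from all transcripts of GENCODE M21 and distances from the nearest coding start. The other leading NP peaks lie nearest to Ankrd50, Dmrta2, Xkr9, Adgrl4, Il20rb, Tprg, Hif1an, Adra1a and Tmem260. DESeq2 called 1 of these 12, the peak nearest to Il20rb.

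The 12 leading PC peaks had at most 2 open calls in NP. The peak nearest to Ces2a, 22934 bp from its start and over the annotated start of another transcript, had 119 calls in PC and 1 in NP, a ratio of 313 per open call with an exact 95% interval from 55.1 to 12464. The peak in an intron 6046 bp from the start of Casz1, a zinc finger gene, had 98 calls in PC and 1 in NP. The peak nearest to Hif1a, the hypoxia-inducible factor gene, lies in an intron and was open in 0.0969% and 0% of NP and in 11.4% and 11.7% of PC nuclei. Only the peak nearest to Spink6, a protease inhibitor gene, was at 0 in NP, with 93 calls in PC, at least 81.5-fold higher. DESeq2 called all of them but the Spink6 peak. The rest lie nearest to Slco6c1, Apob, Fbrsl1, Mboat1, Osbpl5, Lilra5, Edaradd and Mzt2.

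Called peaks lay away from gene starts more often than uncalled ones. An annotated start lay in 11.2% of NP-higher and 10.1% of PC-higher peaks, against 28.1% of peaks not called and 17.0% of all tested. Introns held 43.5% and 44.6% of them and distal sequence 30.1% and 30.6%. The median distance to the nearest coding start was 20732 bp in NP-higher, 17870 bp in PC-higher and 14276 bp in all tested peaks. Of 13297 peaks tested over the start of a coding gene, 2552 were called higher in NP (19.2%) and 1966 in PC (14.8%). That split depended on the processing. Without the filter, which shifted all log2 fold changes of start peaks by a median of 0.18, 4631 and 1196 were called. Scaling by total open calls without TMM turned the order, with 2089 and 2329, as did equal numbers of nuclei, with 1497 and 1833. DESeq2 size factors gave 2809 and 1855, and the DESeq2 test gave 931 and 929.

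Of 17084 genes tested for gene activity, 3856 were called higher in NP (22.6%) and 4048 in PC (23.7%), with a median over all genes of -0.005. The fold changes of the samples differed by a median of 0.16, and DESeq2 called 1511 and 1613 genes. The shares of nuclei did not overlap between the clusters for 2896 of the NP-higher and 3602 of the PC-higher genes. The counts below for each gene list stand beside those shares.

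Regulators of the nephron progenitor were mostly higher in NP. Of 29 genes tested, 20 were called higher in NP, 0 in PC and 9 in neither direction, with a median log2 fold change of 0.73. Wt1, the zinc finger regulator needed for kidney formation, had an open peak in its gene window in 53.1% and 58.6% of NP and 7.61% and 10.0% of PC nuclei. NP lay above PC in both samples (3.11, SE 0.11, edgeR adjusted p = 4.42e-144). Sall1, a nuclear factor of the cap mesenchyme, was open in 51.7% and 61.4% of NP and 10.7% and 14.0% of PC nuclei, also without overlap (2.61, SE 0.11, edgeR adjusted p = 7.20e-114). Six2 gave a log2 fold change of 2.46 (SE 0.15, edgeR adjusted p = 4.76e-54) with the shares given above. Uncx, a homeobox gene, was open in 23.9% and 27.6% of NP and 3.05% and 5.43% of PC nuclei (2.67, SE 0.17). Eya1, the cofactor of Six2, differed less, at 39.6% and 45.8% against 25.1% and 23.4% (1.23, SE 0.09), while its relative Eya4 differed more, at 52.5% and 60.9% against 20.1% and 21.1% (2.07, SE 0.09). The progenitor transcription factor genes Osr1 (1.67) and Meox2 (2.49) were also higher in NP.

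The genes of this list that were not called included factors shared by both lineages. Pax2, which both the mesenchyme and the bud require, was open in 61.6% and 68.6% of NP and 62.9% and 68.0% of PC nuclei, with the values of both clusters interleaved (0.08, SE 0.06, edgeR adjusted p = 0.239). Its relative Pax8 was at 48.3% and 55.7% against 59.1% and 60.6% (-0.08, SE 0.06, edgeR adjusted p = 0.342). Lhx1 (-0.03, SE 0.14), a gene of the early nephron vesicle, and Dll1 (0.17, SE 0.12), a Notch ligand gene, were not called either. At the peak over its start, Dll1 was called higher in NP (0.34). Cited1, the cofactor that marks the least committed progenitors, was open in 17.4% and 22.3% of NP and 12.4% and 12% of PC nuclei and was called (0.77, SE 0.15), though not by DESeq2.

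**Figure D1:**
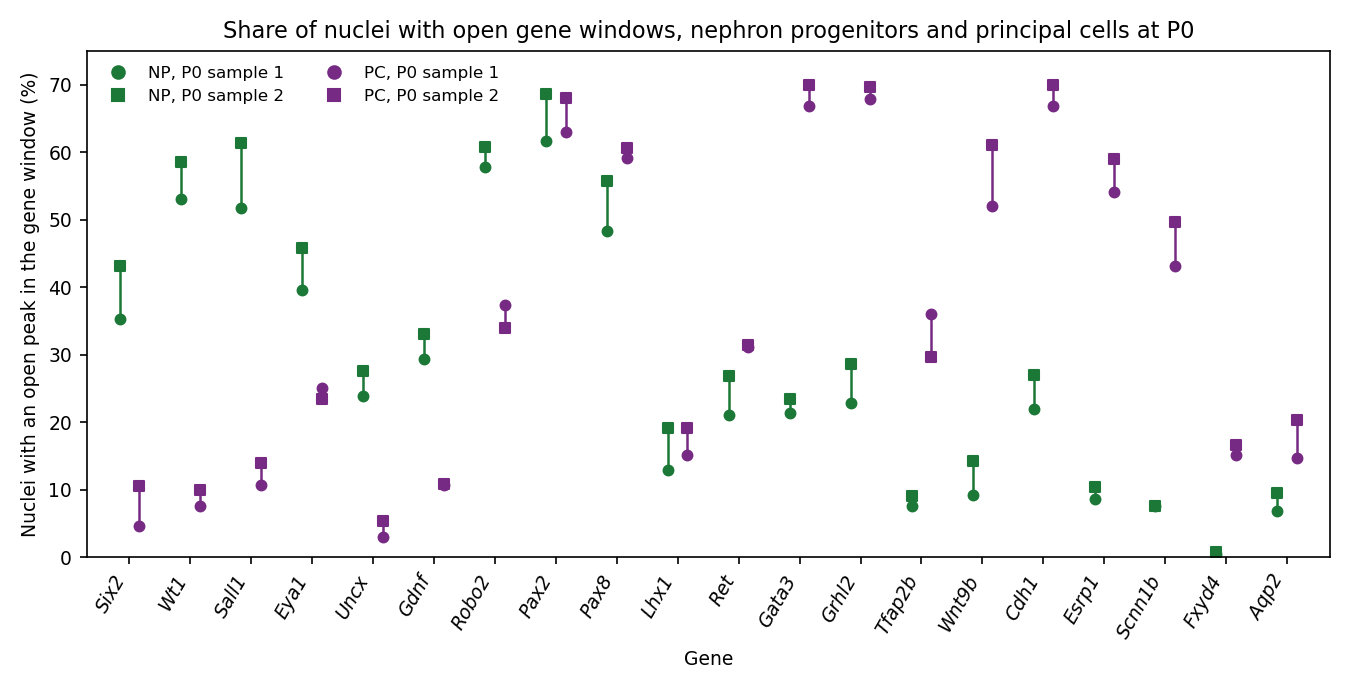
Percent of nuclei with at least 1 open peak in the gene window (y axis) for 20 genes of the lists (x axis), in NP (green) and PC (purple) of P0 sample 1 (circles) and sample 2 (squares). Six2, Wt1, Sall1 and Uncx stand above in NP, Pax2 overlaps, and Gata3, Cdh1 and Scnn1b stand above in PC, with 66.8% and 70.0% of PC nuclei open at Gata3.

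Regulators of the ureteric bud and collecting duct moved the other way. Of 25 genes, 21 were called higher in PC, 1 in NP and 3 in neither, with a median of -1.04. Gata3, which the ureteric bud needs, was open in 21.3% and 23.5% of NP and 66.8% and 70.0% of PC nuclei, with no overlap (-2.33, SE 0.07, edgeR adjusted p = 1.39e-204). At the peak over its start the shares were 1.94% and 2.69% in NP and 27.4% and 30.9% in PC. Grhl2, a grainyhead factor of epithelial barriers, was open in 22.9% and 28.6% of NP and 67.8% and 69.7% of PC nuclei (-1.80, SE 0.07). Its start peak showed 3.78% and 5.87% against 35.0% and 40.9%, with a log2 fold change of -2.85 at the start, and whether the 2 log2 values differ was not tested. Tfap2b, an AP-2 factor gene, was at 7.56% and 9.05% in NP and 36.0% and 29.7% in PC (-2.08, SE 0.13), and Tfap2a followed it (-1.97, SE 0.08). Pou3f3, a POU factor gene, was at 8.04% and 8.96% in NP and 40.9% and 43.7% in PC (-2.37, SE 0.12). The collecting duct regulator Tfcp2l1 (-1.73) and the ETS factors Ehf (-1.31), Elf3 (-1.07) and Elf5 (-0.95) were higher in PC as well.

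The exceptions in this list were Esrrg, Hoxb7, Etv4 and Hmx2. Esrrg, a nuclear receptor gene, was called higher in NP over its window (0.38, SE 0.06) but higher in PC at its start peak, which was open in 4.65% and 5.67% of NP and 10.2% and 8.00% of PC nuclei. Hoxb7, whose promoter is used to mark the ureteric bud, was open in 34.9% and 43.9% of NP and 33.8% and 40.0% of PC nuclei and did not pass the test (0.20, SE 0.09, edgeR adjusted p = 0.0789). Etv4, a target of Ret signalling, was not called (0.13, SE 0.09), and Hmx2 was open in 2.33% and 3.28% of NP and 2.79% and 3.71% of PC nuclei (-0.22, SE 0.36). Mecom was called higher in PC over its gene body (-0.65), while the peak over its start was open in 1.55% and 1.99% of NP and in 0.254% and 0% of PC nuclei.

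Genes of Gdnf and Ret signalling were called in both directions. Of 15 genes, 4 were called higher in NP, 7 in PC and 4 in neither, with a median of 0.00. The NP count is near the 22.6% called higher in NP over all genes, and the PC count lies above the 23.7% for PC. Gdnf was open in 29.3% and 33.1% of NP and 10.7% and 10.9% of PC nuclei (1.98, SE 0.13, edgeR adjusted p = 5.44e-45), and NP was the higher in both samples. Robo2, the receptor that limits where Gdnf is made, was at 57.8% and 60.8% against 37.3% and 34% (1.13, SE 0.07). The receptor gene Ret was called higher in PC over its window (-0.38, SE 0.10), at 21% and 26.8% of NP and 31.2% and 31.4% of PC nuclei, though not by DESeq2. At the start peak of Ret the gap was wider, with 3.88% and 6.57% of NP against 16.2% and 14.9% of PC nuclei (-1.46). The Ret coreceptor Gfra1 (-0.35) and the target Etv5 (-0.39) were called higher in PC, but neither start peak was, and the feedback inhibitors Spry1 and Spry2 were not called. By DESeq2, 2 genes of this list were higher in NP, Gdnf and Robo2, and 3 in PC. Over starts only, from 2 kb upstream to 500 bp downstream, the counts were 2 and 4, and by nuclei with an open peak 3 and 4.

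In Wnt, Fgf and Bmp signalling, 12 of 26 genes were called higher in NP, 7 in PC and 7 in neither, with a median of 0.07. Wnt9b, the signal from the bud to the progenitors, was open in 9.21% and 14.2% of NP and 52.0% and 61.1% of PC nuclei, with no overlap (-2.68, SE 0.09, edgeR adjusted p = 4.81e-157). Wnt7b, which the collecting duct uses to pattern the medulla, was at 27.6% and 33.7% against 47.5% and 56% (-1.10, SE 0.07), and Wnt5a was at 13.4% and 16.9% against 27.4% and 31.7% (-0.97, SE 0.12). On the NP side stood the inhibitor gene Dkk1 (1.29, SE 0.24), Rspo3 (1.16, SE 0.16), whose protein strengthens Wnt signals, the transcription factor gene Lef1 (0.79, SE 0.08) and Bmp4 (0.82, SE 0.11). Dkk1 was open in 10.9% and 11.0% of NP and 4.06% and 5.43% of PC nuclei. The Wnt targets Axin2 (0.11, SE 0.09) and Lgr5 (-0.01, SE 0.08) were not called, and neither was Fgf8 (-0.18, SE 0.35), which was open in 2.91% and 3.48% of NP and 2.28% and 5.43% of PC nuclei. Fgfr2 was open in at least 97.5% of the nuclei of every sum, and its call toward PC (-0.11, SE 0.04) was lost without the block. DESeq2 called 6 genes of this list higher in NP and 4 in PC.

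**Figure D2:**
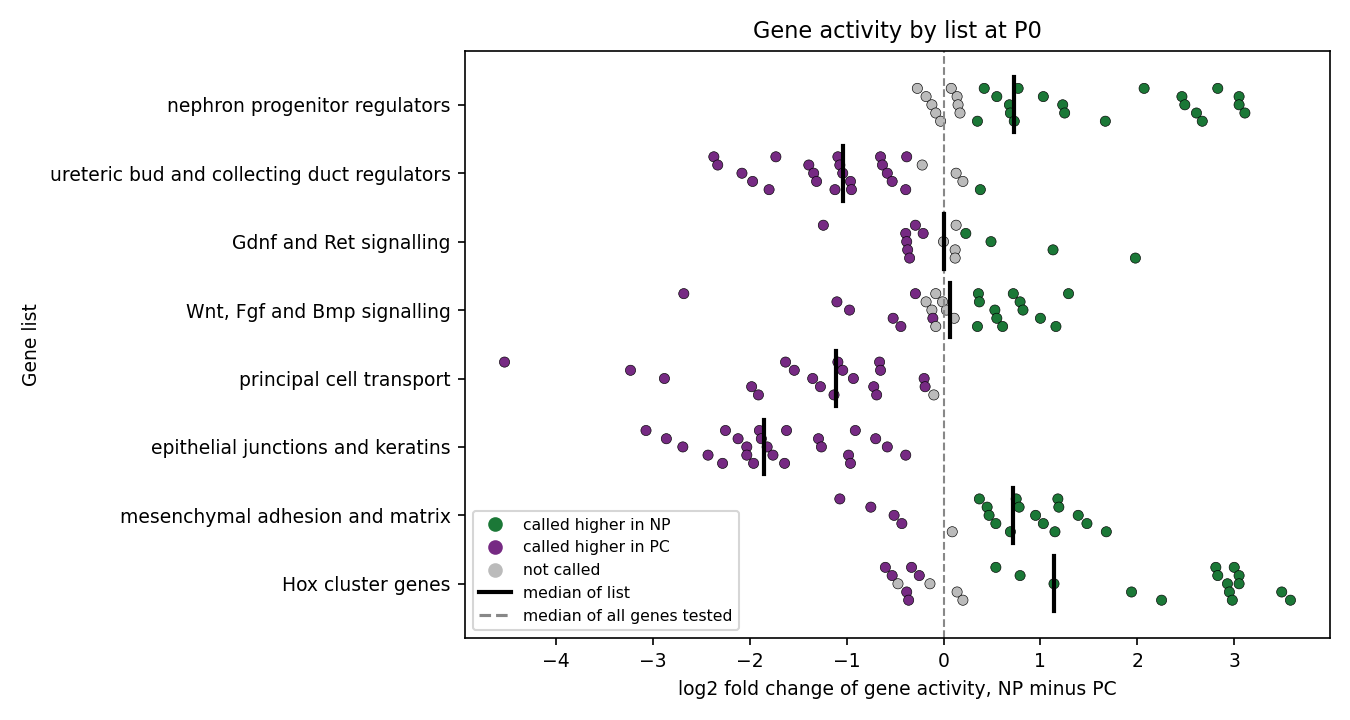
Log2 fold change of gene activity, NP minus PC (x axis), of each gene tested in 8 lists (y axis), coloured green when called higher in NP, purple when called higher in PC and grey when not called. Black bars are list medians, from -1.85 for epithelial junctions and keratins to 1.14 for Hox cluster genes, and the dashed line is the median of all 17084 genes tested.

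Transport genes of the principal cell were nearly all higher in PC than in NP. Of 20 genes, 19 were called higher in PC, 0 in NP and 1 in neither, with a median of -1.11. Fxyd4, a regulator of the sodium pump, was open in 0.484% and 0.796% of NP and 15.2% and 16.6% of PC nuclei (-4.53, SE 0.32, edgeR adjusted p = 6.83e-45). Scnn1b, a subunit of the epithelial sodium channel, was at 7.66% of NP nuclei in both samples and at 43.1% and 49.7% of PC nuclei (-2.88, SE 0.11, edgeR adjusted p = 1.64e-130). Its partner subunits Scnn1g (-1.54, SE 0.13) and Scnn1a (-0.69, SE 0.11) were higher in PC too. Avpr2, the vasopressin receptor gene, was at 1.16% and 0.398% of NP and 9.14% and 6.57% of PC nuclei (-3.23, SE 0.38). The water channel genes Aqp2 (-1.13, SE 0.17), Aqp3 (-1.35, SE 0.15) and Aqp4 (-1.63, SE 0.18) differed moderately over their windows. The window of Aqp2 was open in 6.88% and 9.55% of NP and 14.7% and 20.3% of PC nuclei, a smaller contrast than at its start peak (-3.80). The potassium channel genes Kcnj1 (-1.91) and Kcnj16 (-1.98) and the mineralocorticoid receptor gene Nr3c2 (-1.09) were also higher in PC. Atp1b1, a subunit of the sodium pump, was called higher in PC (-1.04, SE 0.08). DESeq2 called 15 of the 20.

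Every gene of the list of epithelial junctions and keratins was called higher in PC. There were 24 genes, the median was -1.85, and DESeq2 called 22. Cdh1, which encodes E-cadherin, was open in 22% and 27% of NP and 66.8% and 70.0% of PC nuclei (-2.03, SE 0.07, edgeR adjusted p = 4.89e-168). Esrp1, an epithelial splicing factor gene, was at 8.62% and 10.4% of NP and 54.1% and 58.9% of PC nuclei (-2.86, SE 0.10). The tight junction genes Cldn8 (-3.07), Cldn4 (-2.69) and Cldn3 (-2.43) and the keratin genes Krt18 (-2.28), Krt19 (-1.90), Krt7 (-1.82) and Krt8 (-1.26) showed the same order of the clusters. Cldn8 was at 4.07% and 3.58% of NP and 32.0% and 36.0% of PC nuclei.

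Mesenchymal adhesion and matrix genes lay mostly on the NP side, with 15 of 20 called higher in NP, 4 in PC and 1 in neither, and a median of 0.72. Cdh11, a mesenchymal cadherin gene, was open in 42.2% and 48.6% of NP and 18.3% and 17.7% of PC nuclei (1.68, SE 0.10), and Cdh2, which encodes N-cadherin, in 60.1% and 66.4% against 33.0% and 32.3% (1.39, SE 0.07). The repressor genes Zeb1 (1.48) and Zeb2 (1.15) and the intermediate filament gene Vim (1.19) were higher in NP. Npnt, the ligand that the ureteric bud lays down for integrin alpha8, was called higher in PC, at 26.1% and 30.0% of NP and 52.8% and 54.3% of PC nuclei (-1.07, SE 0.08), while Itga8, the gene of that integrin, was higher in NP, at 42.7% and 45.7% against 27.7% and 24.6% (1.03, SE 0.09). Twist1, Lamc1 and Nfatc1 were the other genes of this list called higher in PC. The stroma markers given above moved in the same direction as this list. DESeq2 called 9 of the list higher in NP and 3 in PC.

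Hox genes, which set position along the body axis, differed by cluster and not as one group. In the list of 25, 15 genes were called higher in NP, 6 in PC and 4 in neither, with a median of 1.14. The peak counts of the Hox clusters stand beside 33.2% called higher in NP and 30.6% in PC over all peaks tested. Across the whole Hoxa cluster (chr6:52155590-52260880), 45 of 47 peaks tested were called higher in NP and 0 in PC, and the peaks summed to 640 and 608 CPM in NP against 130 and 149 in PC. The Hoxc cluster (chr15:102921103-103036852) showed the largest ratio of NP to PC among the 4 clusters in both samples, with 34 of 35 peaks higher in NP, 0 in PC, and 567 and 526 CPM against 71.3 and 75. In the Hoxb cluster (chr11:96194316-96368256) the sums were higher in PC, at 681 and 677 CPM in NP against 781 and 820. Of its 52 tested peaks, 7 were higher in NP and 20 in PC, the latter not far from the share over all peaks.

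The genes of the Hoxd cluster (chr2:74668310-74765142) were split along its length. Its 40 tested peaks held 16 higher in NP and 12 in PC, near the shares of 33.2% and 30.6% over all peaks. The split is therefore read from the position of the genes and not from these counts. The sums were 528 and 515 CPM in NP and 432 in both PC sums. At the 5' end, Hoxd13 (1.51, SE 0.41), Hoxd12 (2.47, SE 0.16), Hoxd11 (2.83, SE 0.12), Hoxd10 (0.79, SE 0.14) and Hoxd9 (0.54, SE 0.12) were called higher in NP. Next to them, Hoxd8 (-0.36, SE 0.10), Hoxd4 (-0.53, SE 0.07), Hoxd3 (-0.33, SE 0.05) and Hoxd1 (-1.05, SE 0.20) were called higher in PC. Hoxd11 was open in 42.6% and 49.6% of NP and 7.11% and 10.6% of PC nuclei, and Hoxd8 in 28.1% and 34.8% against 39.3% and 45.4%. Within Hoxa, Hoxa13 was the one gene not called (-0.47, SE 0.33). Windows of neighbouring Hox genes share peaks, so their values are not separate. All peaks of Hoxd4 lie in the window of Hoxd3, all of Hoxc6, Hoxc8, Hoxc9 and Hoxc10 in that of Hoxc5, and all of Hoxa4, Hoxa5 and Hoxa6 in that of Hoxa3, and some are shared by Hoxa9 and Hoxa10 and by Hoxb7 and Hoxb8. DESeq2 did not call Hoxd8, Hoxd9 or Hoxd10, and by DESeq2 2 genes of the list of 25 were higher in PC.

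**Figure D3:**
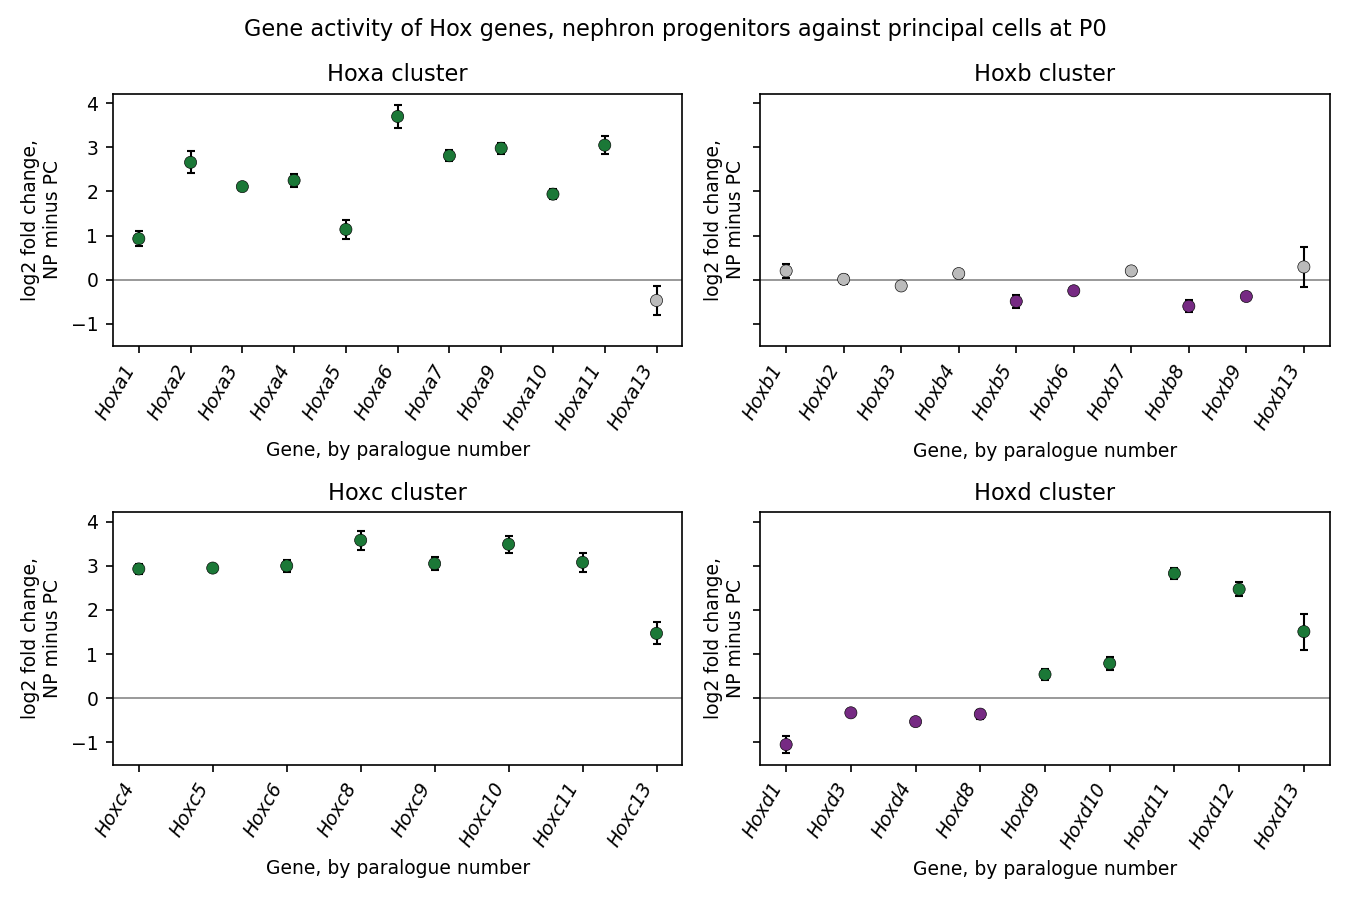
Log2 fold change of gene activity, NP minus PC (y axes), for each Hox gene tested in the Hoxa, Hoxb, Hoxc and Hoxd clusters. The x axes are ordered by paralogue number. Bars are the SE, the log2 fold change over the square root of F, which can lie below the counting error. Points are green when called higher in NP, purple when called higher in PC and grey when not called. Hoxa and Hoxc genes sit above 0 except Hoxa13, Hoxb genes lie near 0, and Hoxd changes sign between Hoxd8 and Hoxd9.

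The genes with the largest differences, among those open in at least 20% of nuclei of the higher cluster, included several outside the lists. In NP the leading gene was Defb25, a defensin gene with a single peak in its window, at 22.9% and 26.5% of NP and 0.761% and 1.43% of PC nuclei (4.56, SE 0.27). It was followed by Tcf23 (3.85, SE 0.25), a basic helix-loop-helix gene at 19.5% and 21.9% against 0.254% and 2.86%, which stood higher still in the stroma1 cluster. Rspo1, a secreted amplifier of Wnt signals, was at 43.8% and 50.7% against 4.82% and 4.86% (3.57, SE 0.14), and Lamp5, a membrane protein gene, at 39.8% and 42.2% against 4.57% and 7.14% (3.25, SE 0.14). The others were Prph2 (3.02), Wt1 and 6 Hox genes, Hoxc8 (3.58), Hoxc10 (3.49), Hoxc11 (3.08), Hoxa11 (3.05), Hoxc9 (3.05) and Hoxc6 (3.00).

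In PC the leading gene was Smim6, a small membrane protein gene, at 1.07% and 1.89% of NP and 23.6% and 26.0% of PC nuclei (-3.99, SE 0.23). Rnf186, a ubiquitin ligase gene, was at 0.969% and 2.39% against 20.8% and 23.1% (-3.58, SE 0.22), and Mal2, whose protein sorts cargo to the apical membrane, at 4.46% and 3.58% against 35.3% and 36.9% (-3.33, SE 0.15). Rab17, a GTPase gene of epithelial trafficking, was at 5.14% and 8.06% against 33.5% and 45.1% (-2.70, SE 0.13). The others were Spata9 (-3.23), Ttll10 (-3.07), Gm609 (-2.88), 9230102O04Rik (-2.77), Cldn8, Scnn1b, Esrp1 and Cldn4. The rule that chose these 24 genes required the same order of the clusters in both samples, so that order is no separate result.

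The levels of the called peaks were then read in the other cell types of the P0 samples. The 26685 peaks called at least 2-fold higher in NP and tested over all 13 cell types had a median of 7.66 CPM in NP, 3.38 in podocytes, 2.77 in loop of Henle and 1.29 in PC. The type with the highest level after NP was podocytes for 25.3% of them, followed by the stroma2 cluster for 16.2%. The 25683 such PC peaks had a median of 7.54 in PC, 4.6 in connecting tubule (CNT), 3.32 in loop of Henle and 1.31 in NP. The highest other type was connecting tubule for 25.4%, proximal tubule (PT) for 14.1% and intercalated cells for 11.6%.

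**Figure D4:**
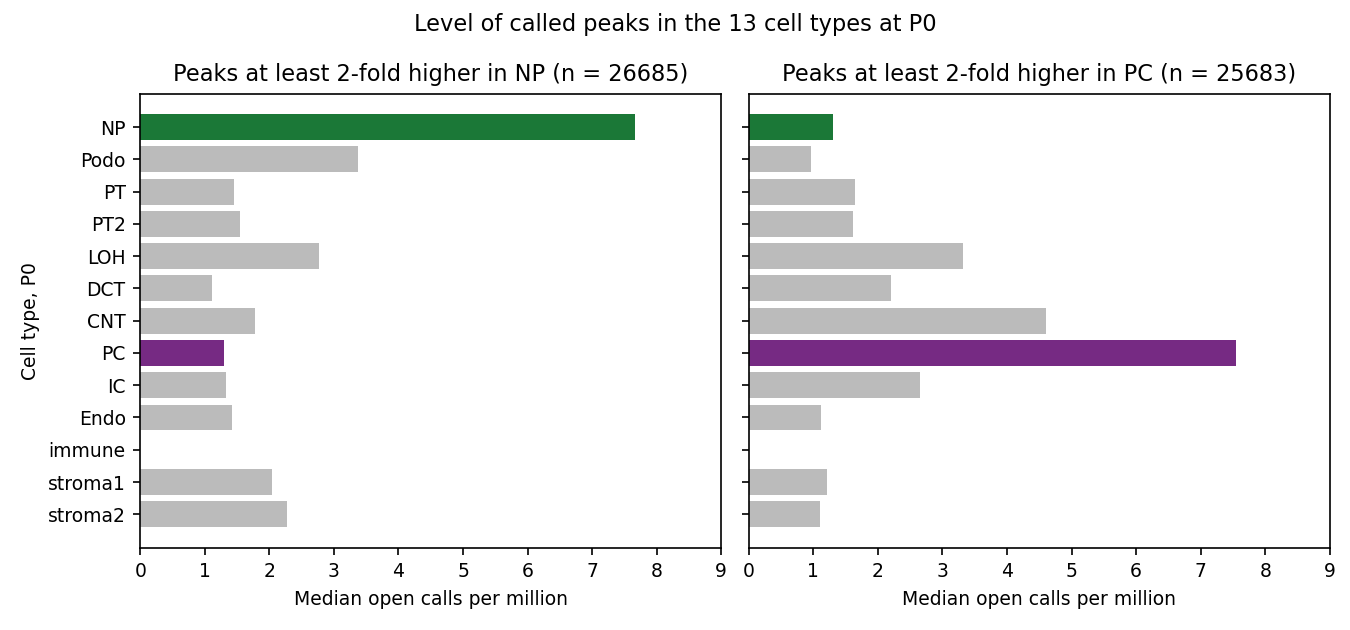
Median CPM (x axes) in each of the 13 cell types at P0 (y axis), mean of the 2 samples, for peaks called at least 2-fold higher in NP (left) and in PC (right). NP peaks reach 7.66 in NP and 3.38 in podocytes, and PC peaks reach 7.54 in PC and 4.6 in CNT.

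NP was compared with podocytes, a descendant of its own lineage, and PC with loop of Henle, a tubule of the other lineage, in a fit over all 13 cell types. Over all 174406 peaks tested, 21099 were called higher in NP than in podocytes (12.1%) and 17800 higher in PC than in loop of Henle (10.2%). These comparisons use the same NP and PC sums as the comparison of NP with PC, so a gene chosen as high in one of them starts from a high level here, and the values below are a description. Over 17566 genes, 4357 were called higher in NP than in podocytes (24.8%) and 2433 higher in PC than in loop of Henle (13.9%).

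Wt1 was lower in NP than in podocytes (-0.34, edgeR adjusted p = 8.51e-05). It stood at 157 and 142 CPM in NP and 177 and 194 in podocytes, with 15.8 and 18.8 in PC. For the genes in this paragraph, CPM is relative to the calls summed over gene windows, scaled with TMM. The marker and Hox sums above are relative to all open calls, so the 2 scales cannot be compared. Six2 stood at 71.5 and 69.1 in NP, 21 and 29.6 in podocytes and 8.38 and 17.0 in PC. Its level was the highest of the 13 types in NP. As means of the 2 samples, Gdnf stood at 75.6 in NP and 94.7 in the stroma1 cluster, and Tcf23 at 40.4 and 61.5. Of the 12 leading NP genes, Tcf23 and Hoxc6 were highest in stroma1, Wt1 in podocytes and the others in NP. NP was not tested against stroma. Gata3 (1.85, PC minus loop of Henle), Wnt9b (1.48) and Fxyd4 (3.72) were higher in PC. Pou3f3 (0.04, edgeR adjusted p = 0.831) and Tfap2b (-0.15, edgeR adjusted p = 0.330) did not differ beyond their error. As means of the 2 samples, Scnn1b stood at 112 in PC and 146 in connecting tubule, and Kcnj1 at 62.6 in PC and 117 in the DCT cluster. Of the principal cell transport genes, only Aqp2 and Fxyd4 were highest in PC among the 13 types. PC was not tested against connecting tubule.

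The same clusters were read in the adult samples, which hold few NP nuclei, 52 at P21 and 90 and 53 at P56, against 103, 266 and 212 PC nuclei. The adult nuclei named NP did not carry the defining marker. Six2 had 0, 0 and 1 open calls in them and Wt1 had 2, 0 and 6, so the adult label is used here only by its name. Of 11316 peaks tested, 482 were called higher in adult NP (4.26%) and 504 in adult PC (4.45%), and of 11769 genes, 697 (5.92%) and 596 (5.06%). These counts rest on single samples, since without P21 the peaks were 1078 and 1167, without P56 sample 2 the genes were 320 and 323, and without P56 sample 1 the genes higher in NP were 458. Without the sample block the genes were 381 and 306. Of the list genes called at P0, 110 could be tested, of which 75 had the same direction, 43 were called the same way and 7 the other way. Over all genes called at P0 and tested here, 1368 of 2155 NP-higher and 1831 of 3053 PC-higher genes had the same direction. Of all these genes, 292 and 424 were called the same way and 61 and 173 the other way. These samples are not independent of the cluster names, which the authors gave to nuclei of both stages together.

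Some Hox and principal cell genes kept their direction and others did not. Hoxa7 (2.08, SE 0.23), Hoxc6 (2.31, SE 0.27) and Sall1 (2.04, SE 0.22) were called higher in adult NP. Gata3 had 6, 6 and 5 open calls in adult NP and 116, 138 and 357 in adult PC (-3.48, SE 0.25, edgeR adjusted p = 2.01e-09), and Aqp2 had 0, 4 and 2 against 54, 83 and 159 (-3.94, SE 0.36, edgeR adjusted p = 6.65e-08). Grhl2, by contrast, was not called in the adult samples (-0.26, SE 0.16, edgeR adjusted p = 0.382). The adult value had the other sign for Hoxd9 (-1.04), Hoxb9 (0.40), Slc14a2 (0.39) and Atp1b1 (0.28), of which only Hoxd9 was called in the adult samples. Genes of other lists with the other sign and a call in the adult samples included Slit2 (-1.58), Wnt5a (1.04), Tfap2b (0.95), Wnt7b (0.65) and Bcl11b (0.58).

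Short sequence motifs were counted in the central 300 bp of the called peaks. Each motif was searched on both strands by its letters, in which N is any base, and searches were separate, so matches of different motifs can overlap. The shares in this paragraph are of all 109056 tested peaks on named chromosomes. The letters of Six2-type sites, TCANGTTNC, matched in 4.56% and those of WT1 sites, searched as GTGGGAG, matched in 11.1%. Posterior HOX sites were searched as CCATAAA and matched in 4.35% of peaks, whereas TCF/LEF sites, the nuclear end of Wnt signalling, were searched as CTTTGAT and matched in 4.82%. The E-box of helix-loop-helix factors was searched as CAGCTG and matched in 21% of peaks, SOX sites were searched as CCATTGTT with matches in 1.04%, and FOX sites were searched as TGTTTAC with matches in 4.44%. TEAD sites were searched as ACATTCC and found in 6.13% of the peaks, GATA sites were searched as AGATAA and found in 12.6%, and TFAP2 sites were searched as GCCNNNGGC and found in 13%. The sites of GRHL and TFCP2L1, both grainyhead-like factors, were searched as AACCNGTT and found in 2.73%, those of ELF and other ETS factors were searched as AGGAAGT and found in 9.28%, and those of POU factors were searched as ATGCAAAT and found in 1.62%. Part of the HNF1 site was searched as GTTAAT and found in 10.6% of the peaks, the site of AP-1 was searched as TGANTCA and found in 9.77%, and part of the NFI site was searched as TTGGCA and found in 16.8%. The HNF4 site was searched as CAAAGTCCA and found in 0.489% of the peaks, and part of the corticosteroid receptor site was searched as TGTTCT and found in 22.5%.

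Matches to WT1 and Six2-type were more frequent in NP-higher peaks, and matches to GRHL, POU, HNF1, ELF and AP-1 letters in PC-higher peaks. WT1 letters were found in 15.7% of NP-higher and 7.67% of PC-higher peaks, and Six2-type letters in 6.08% and 4.03%. GRHL letters were found in 1.70% of NP-higher and 4.6% of PC-higher peaks, a ratio of 0.369. POU letters stood at 1.2% and 2.42%, HNF1 letters at 9.44% and 14.9%, ELF letters at 7.81% and 12.1%, AP-1 letters at 8.52% and 13% and NFI letters at 14.9% and 21.6%. GATA letters stood at 13% and 15.0%, posterior HOX letters at 5.29% and 4.76% and TFAP2 letters at 11.2% and 11.8%. The remaining motifs had ratios of the NP share to the PC share between 0.800 for TEAD and 1.17 for the E-box. GC content was 50.6% and 48.7%, with 51.1% in all tested peaks, and its part in these shares was not tested. The median log2 fold change was 0.54 for peaks with WT1 letters and 0.03 without, 0.44 and 0.06 for Six2-type, and -0.82 and 0.09 for GRHL. A match is a description of the sequence and not a binding site.

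**Figure D5:**
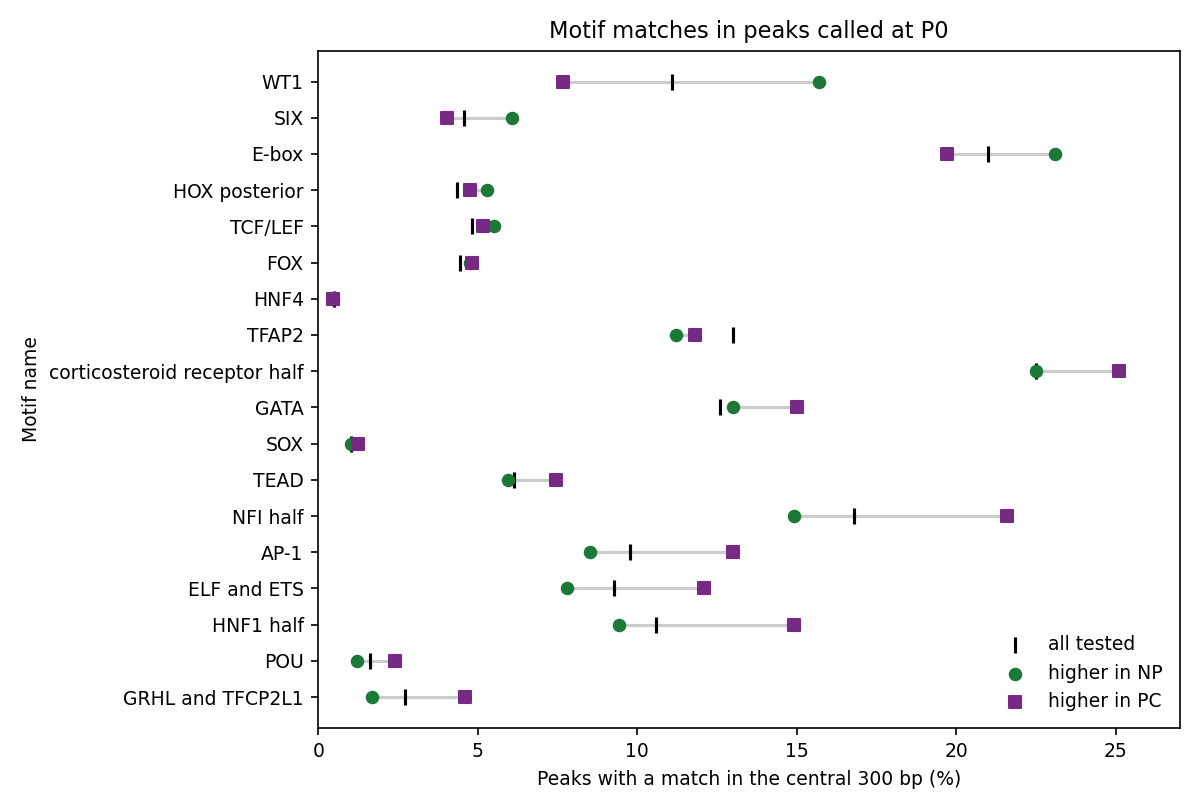
Percent of peaks with a match in their central 300 bp (x axis) for 18 motifs (y axis, ordered by the ratio of the NP share to the PC share), in peaks called higher in NP (green circles), in PC (purple squares) and in all tested peaks (black ticks). WT1 letters reach 15.7% in NP-higher and 7.67% in PC-higher peaks, and GRHL letters 1.70% and 4.6%.

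Six2-type letters are shown in 4 peaks higher in NP, the 4 with the largest fold among 13 peaks that were open in at least 10% of NP nuclei and lay nearest to a different gene of the lists. The match is in capitals with 45 bases on each side, on the plus strand.

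Slit2, chr5:47096049-47096147: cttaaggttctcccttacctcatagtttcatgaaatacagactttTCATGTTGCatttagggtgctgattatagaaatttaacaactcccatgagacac
Osr1, chr12:9898570-9898668: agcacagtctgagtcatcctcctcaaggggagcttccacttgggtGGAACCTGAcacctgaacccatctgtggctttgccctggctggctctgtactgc
Gdnf, chr15:7838775-7838873: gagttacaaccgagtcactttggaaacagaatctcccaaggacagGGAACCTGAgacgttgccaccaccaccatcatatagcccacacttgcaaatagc
Mycn, chr12:12643468-12643566: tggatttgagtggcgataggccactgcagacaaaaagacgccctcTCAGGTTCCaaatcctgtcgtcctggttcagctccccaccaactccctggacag

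The Gdnf peak, 28013 bp from its start, was open in 13.3% and 16.3% of NP and 1.27% and 0.286% of PC nuclei (4.29, SE 0.33, edgeR adjusted p = 2.47e-34). Its 301 calls in NP and 6 in PC gave a ratio of 19.1 with an exact 95% interval from 8.66 to 52.4. The Mycn peak, 297061 bp from the start of that growth regulator, was open in 15.8% and 15.5% against 1.27% and 1.14% (3.81, SE 0.29). The peak nearest to Slit2, which encodes the ligand of Robo2, lies 887159 bp from its start and had 270 calls in NP and 1 in PC, a ratio of 103 with an exact 95% interval from 18.3 to 4070. The peak nearest to Osr1 lies 324101 bp away and had 230 calls and 1, a ratio of 87.5 with an interval from 15.5 to 3469. All 4 were chosen for their fold in these samples, so NP shares above PC shares follow from the choice. Each PC sum held at most 5 calls at them, under the filter's scaled minimum, so they passed the filter through NP alone.

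GRHL letters are shown in the same way in 3 of the 4 peaks higher in PC that the same rule chose among 11.

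Nr3c2, chr8:76380578-76380675: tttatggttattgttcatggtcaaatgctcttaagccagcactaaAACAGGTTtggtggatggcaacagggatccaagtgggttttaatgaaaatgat
Rab25, chr3:88548329-88548426: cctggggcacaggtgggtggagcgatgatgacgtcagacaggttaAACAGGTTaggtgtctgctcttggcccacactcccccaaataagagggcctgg
Sox9, chr11:112872710-112872807: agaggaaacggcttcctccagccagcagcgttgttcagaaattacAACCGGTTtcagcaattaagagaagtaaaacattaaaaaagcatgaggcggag

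The Sox9 peak, 90592 bp from the start of a regulator of bud branching, was open in 0.775% and 0.597% of NP and 15.7% and 16% of PC nuclei (-4.36, SE 0.31). The Nr3c2 peak, in an intron 518910 bp from the nearest coding start, was at 0.388% and 0.199% against 10.2% and 10.9% (-4.94, SE 0.42), and the Rab25 peak, 209 bp from the start of that epithelial GTPase gene, at 0.194% and 0.697% against 9.39% and 12.3% (-4.45, SE 0.39).

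The clusters took different shares of the 2 assays. NP made up 17.2% and 18.5% of the P0 nuclei in snATAC-seq and 1.62% of the 25138 P0 cells in scRNA-seq (exact 95% interval 1.47% to 1.78%). PC made up 6.57% and 6.44% of nuclei and 11.2% of cells (10.8% to 11.6%). There is 1 scRNA-seq library at P0, its cells were clustered and named separately, and it holds a proliferating cluster that snATAC-seq lacks, so no test was made.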

How the data were processed

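Nuclei isolated from whole mouse kidneys were profiled by 10x snATAC-seq. Per the study's methods and the submitters' processing notes, the authors used Cell Ranger ATAC 1.1.0 on mm10, filtered barcodes on fragment number, mitochondrial reads and promoter ratio, used SnapATAC with Harmony for clustering, and merged peaks that MACS2 called in each cell type. The deposited matrix holds counts per nucleus and peak set to 0 or 1, so a sum counts open nuclei, not fragments. No doublet step is stated and none was run here.

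Open calls were summed per cluster and sample. Peaks and genes that passed filterByExpr (count 10, total 15) were scaled by TMM and tested with edgeR 4.0.16 (glmQLFit, glmQLFTest, Benjamini-Hochberg adjustment, R 4.3.3), with the sample as a block because both clusters come from the same samples. SE is the log2 fold change over the square root of F, and the fit has 1 residual degree of freedom. This SE comes from the test and is no direct standard error. At large folds with few calls it can lie below the counting error. At the Gdnf peak with Six2-type letters, SE was 0.33, while the exact 95% interval of the ratio of 19.1 ran from 8.66 to 52.4. DESeq2 1.42.0 was an alternative. Counts were also simulated from these sums with the fit's own dispersion of 9.77e-05, hence with almost no spread between samples. In them 100 features were changed at each fold and all others were left unchanged. The fit recovered 85% of peaks changed 4-fold and 28% of those changed 2-fold, and 100% and 97% of such genes. There were 0 false calls among peaks and 8 among genes. Far more features were called in the data, so these shares do not give the power of the real fit. Depth was 2666471 to 7649123 open calls per sum.

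Named peaks were the 12 per direction with the largest fold among called peaks open in at least 10% of nuclei of the higher cluster. Named genes were the 12 per direction open in at least 20%. Both had to show the same direction in both P0 samples. Members, gene lists and motifs were chosen with earlier results of these data known. Alternatives covered scaling, filters, the block, equal numbers of nuclei, thinning, gene windows, each sample left out (at P0 by sign only) and Fisher's exact test. Of the scRNA-seq only the cell annotation was used. Results for a few list genes are not reported here.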

Additional observations from a re-analysis of the deposited data

Results flagged for a closer look

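Of the list genes called at P0 and the leading genes, 116 were tested in the adult samples, and 18 had 1 direction in both P0 samples and the other in all 3 adult samples. Of these, 17 are given here. The difference between the stages was not tested, and the adult nuclei named NP lacked open calls at Six2. Adult log2 fold changes of gene activity, NP minus PC, are given.

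Of the genes higher in PC at P0, the adult value was above 0 for the regulators Tfap2b (0.95), Bcl11b (0.58) and Ehf (0.22), for the signals Wnt5a (1.04) and Wnt7b (0.65), for the receptor Fgfr2 (0.05) and for the epithelial genes Epcam (0.55) and Cgn (0.47). It was also above 0 for the transport genes Slc14a2 (0.39) and Atp1b1 (0.28), and for Hoxb9 (0.40), Nfatc1 (0.36) and Dusp6 (0.28). Of the genes higher in NP at P0, it was below 0 for the ligand Slit2 (-1.58), its receptor Robo2 (-0.88), Hoxd9 (-1.04) and the cadherin Fat4 (-0.89). Among the genes given here, Tfap2b, Bcl11b, Wnt5a, Wnt7b, Slit2 and Hoxd9 were called in the adult samples, and the others were not.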

How the results depend on the processing

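The fit rests on 2 samples and its p-values carry mostly counting error. The sample was the block because each sample holds both clusters. Without the replicate block, 35221 peaks were called higher in NP and 32945 in PC, and of the genes 3474 and 3632. In the adult samples, 381 and 306 genes were called without the block.

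With DESeq2, 21609 peaks were called higher in NP, 1511 genes in NP and 1613 in PC, and 931 and 929 start peaks. With equal numbers of nuclei, 20990 peaks were called higher in NP and 21215 in PC, and 1497 and 1833 start peaks. With each nucleus thinned to 1000 open peaks, 3083 and 2848 peaks, 1274 and 1157 genes and 416 and 406 start peaks were called, since fewer calls remained and fewer features were tested. Without the filter, 4631 and 1196 start peaks were called. Fisher's exact test, which treats nuclei and not samples as replicates, gave 1590 and 2964. For gene activity over starts only, 2499 genes were higher in NP, and with all gene types, added after seeing the data, 6539 and 6849. The direction changed for Esrrg (-0.68), Gfra1 (0.17) and Slit2 (-0.17) over starts only, for Slit2 (-0.09) when thinned and for Fgfr2 (0.07) when counting nuclei with an open peak. The cause was not tested for the other changes.

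Of the lists, DESeq2 and thinning gave 2 and 2 Gdnf and Ret genes higher in NP and 3 and 1 in PC, 6 and 5 Wnt, Fgf and Bmp genes in NP, and 4 and 4 in PC. They gave 2 and 0 Hox genes higher in PC, and thinning 11 principal cell transport genes. DESeq2 gave 9 mesenchymal genes higher in NP. At P0 no fit was made with a sample left out, and the sign in the remaining sample was read instead. It matched the call at 36167 to 36174 NP-higher peaks and 33343 to 33357 PC-higher peaks. Of the genes, it matched at 3853 to 3856 NP-higher and 4042 to 4044 PC-higher ones. The features were called from both samples together, so this match is no separate test. In the adult samples, leaving out each in turn gave 358 to 1078 peaks higher in NP and 359 to 1167 in PC, both highest without P21, and 320 to 754 genes in NP and 323 to 676 in PC, both lowest without P56 sample 2. The ratio of NP to PC shares of WT1 letters was 1.81 over whole peaks, 2.27 for peaks called at least 2-fold and 2.17 away from starts, an alternative added after seeing the data. Over whole peaks it was 0.535 for GRHL and 0.779 for HNF1 letters. Promoters of 2000 bp held 2.06% of NP-higher and 2.52% of PC-higher peaks. Of scRNA-seq cells of named types, 12.1% were PC.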
